A study of Mus musculus with 10 samples.

Results

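The liver makes most of the proteins that carry hormones, vitamins, metals and fatty acids through the blood, and 8 of their genes are described here. They were taken by name: Alb, Afm, Afp and Gc of the albumin family, Ttr and Rbp4 of retinol and thyroid hormone transport, Ahsg and A1bg. All 8 were found among 23420 gene rows of RNA-seq read counts. The 10 libraries came from total RNA of livers of C57BL/6 mice aged 4 months, 5 fed standard chow and 5 starved for 48 hours with water. In both groups the 48 hours began and ended at 9 am. Both groups carry no named allele or agent, and each library is 1 liver. The labels count the mice in pairs without saying what was shared within a pair.

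Albumin holds the colloid pressure of plasma and binds fatty acids, and afamin, alpha-fetoprotein and the vitamin D-binding protein are its relatives. Their genes lie in 1 region of chromosome 5, where alpha-fetoprotein is made by fetal liver and falls silent after birth. Retinol leaves the hepatocyte on RBP4, which travels bound to transthyretin. Albumin, transthyretin, RBP4 and fetuin-A, the product of Ahsg, are known as negative acute phase proteins.

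The mice are labelled male, and the counts go against that label in all 10 libraries. Over 7 Y-linked genes (Ddx3y, Uty, Kdm5d, Eif2s3y, Usp9y, Zfy1 and Sry) only 1 read was counted in the 10 libraries together. Xist, the RNA made from the inactive X chromosome of female cells, had 2898 to 11569 reads per library. Cyp4a12a, a cytochrome P450 that male mouse liver makes in quantity, did not exceed 0.22 CPM (counts per 1e6 reads, scaled between libraries). This held in fed and starved libraries alike.

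Reads assigned to genes numbered 22978400 to 29941400 in fed libraries and 18197200 to 28065200 in starved ones. Of 12 hepatocyte markers, none of them among the 8 genes, 4 rose, 1 fell and 7 were not called. They summed to 34408 to 47030 CPM in fed and 48879 to 77292 CPM in starved livers. The higher sum lies mainly in Apoa1 (mean 6325 CPM in fed, 12591 in starved), Cps1 (3112 and 9664) and Tat (1197 and 6216). It is therefore no measure of the share of hepatocytes. Starved libraries 2 and 4 correlated least with the fed libraries, and values without them are given where they matter. Of 11 tested Kupffer cell and macrophage markers 10 fell and 0 rose, and their summed level was 503 to 805 CPM in fed and 223 to 429 CPM in starved livers. Of 10 tested endothelial markers 1 rose and 4 fell, and of 10 stellate cell and fibroblast markers 1 rose and 3 fell. Among all tested genes 18.6% were called higher and 20.0% lower, so such small counts do not set these 2 lists apart. The part of these cells in the results below was not tested. In bulk tissue, fewer cells of a type and less RNA per cell cannot be told apart.

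The sequences shown first lie upstream of RefSeq's starts. They are those of Alb, Afp and Afm, because these neighbours differed in their response, and of A1bg, which changed the most. Promoters of 7 of the 8 genes were taken from RefSeq's table, with 2 for Rbp4. Ttr was left out of the promoter search and is named only. Each is the 120 bases before the start annotated by RefSeq, 5′ to 3′ on the gene's strand (build GRCm38.p6, which is mm10). GENCODE's annotation, used below for gene positions, can place the start elsewhere. The A1bg stretch lies inside the gene as GENCODE places it (60896859 to 60923012). So do the promoter of Ahsg and 1 of those of Rbp4. Capitals mark the C/EBP motif TTGCNNAA, on either strand, in Alb and Afp, TATAAA in Afm and the STAT motif TTCNNNGAA in A1bg.

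Alb, chr5:90460750-90460869, plus strand: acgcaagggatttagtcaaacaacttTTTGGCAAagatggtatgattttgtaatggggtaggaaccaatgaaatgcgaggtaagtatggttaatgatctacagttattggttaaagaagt
Afp, chr5:90490594-90490713, plus strand: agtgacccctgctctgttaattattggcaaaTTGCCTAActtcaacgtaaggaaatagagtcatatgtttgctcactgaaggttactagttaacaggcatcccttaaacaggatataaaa
Afm, chr5:90518829-90518948, plus strand: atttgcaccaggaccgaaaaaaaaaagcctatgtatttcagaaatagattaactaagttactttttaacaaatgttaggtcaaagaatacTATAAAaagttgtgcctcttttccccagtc
A1bg, chr15:60921271-60921390, minus strand: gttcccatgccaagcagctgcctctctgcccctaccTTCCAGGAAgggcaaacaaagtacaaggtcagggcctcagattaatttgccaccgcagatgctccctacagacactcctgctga

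The 6 motifs below were searched on both strands within windows of 300 bases around RefSeq's start. Their shares are over 32817 promoters of that length in RefSeq's table. GTTAAT was planned as well but was not searched. The C/EBP motif TTGCNNAA was present in 5 of the 7 genes (Alb, Afp, Rbp4, Ahsg and A1bg), against 10.8% of all promoters. FOXA's TGTTTNC was also in 5 (20.5% of all), the CCAAT box in 6 (37.4%) and TATAAA in 3 (13.6%). These counts are per gene and the shares per promoter, and Rbp4 counts by either of its 2 windows. Its C/EBP and TATAAA matches lie in 1 window and its FOXA and CCAAT matches in the other. The D-box TTANGTAA, bound by DBP, TEF and HLF, was in the Alb window alone, on each strand once (2.32% of all). TTCNNNGAA was in the A1bg window alone (8.29% of all). No match overlaps that of another motif in the 4 sequences printed. A match is only these letters and does not show that a factor binds.

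In starved liver 1 of the 8 genes rose and 3 fell. Rbp4 rose 2.39-fold, Afm fell by 1.21 and Ttr by 0.88 on the log2 scale, and A1bg fell by 4.27. Alb, Afp, Gc and Ahsg did not pass the test. All 8 passed the filter on low counts, and calls are at an adjusted p under 0.05 over 12796 tested genes (edgeR's quasi-likelihood test). Among all tested genes 18.6% were called higher and 20.0% lower. The fed and starved libraries did not overlap for 4 of the 8 genes, the same 4 that were called, where 29.9% of all tested genes did not overlap. Counts of 1 and 3 among 8 genes do not set them apart from the table, and the values of the single genes are what follows.

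**Figure D1:**
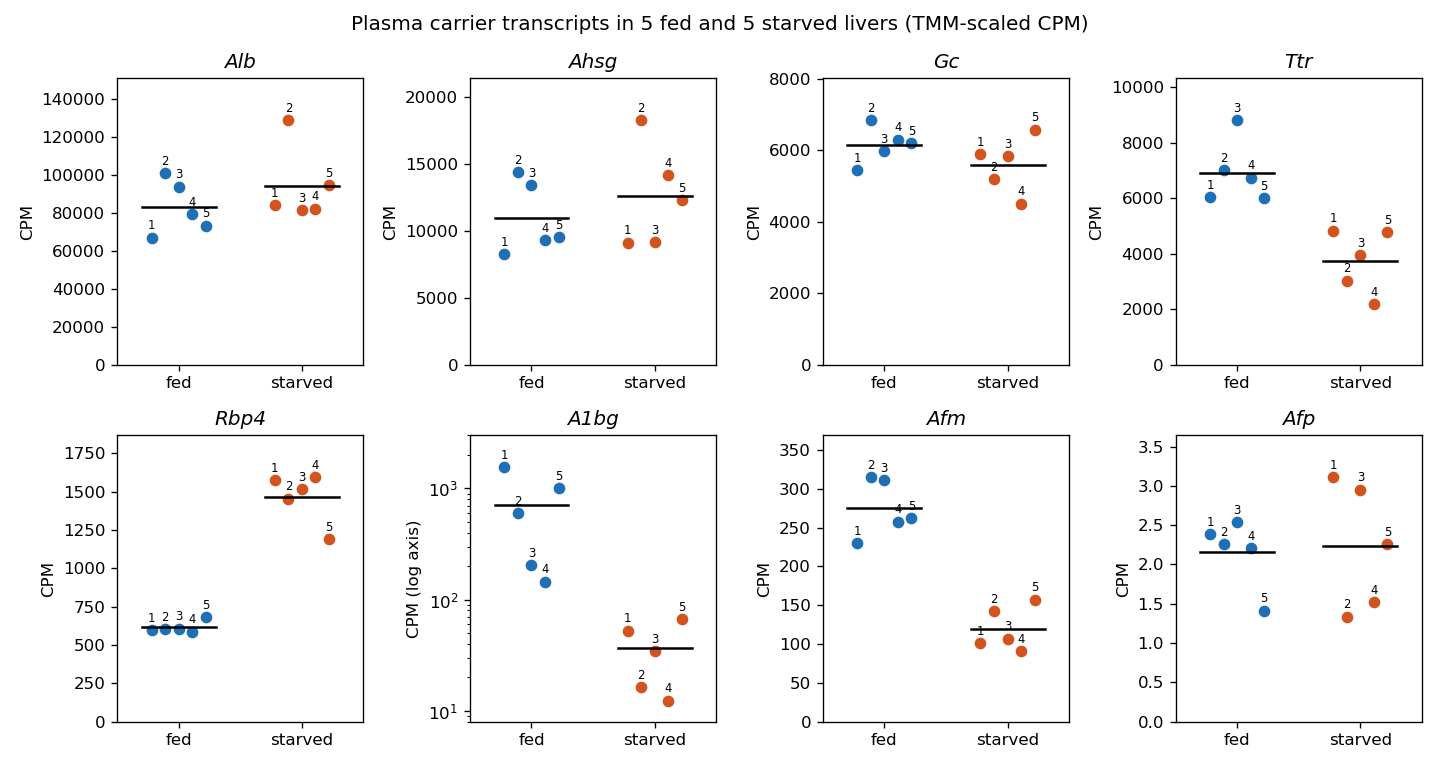
Level of each gene in the 5 fed (blue) and 5 starved (orange) livers in TMM-scaled CPM; numbers are replicates, the black line is the mean, and only the A1bg panel has a log axis. The groups are separate for Ttr, Rbp4, A1bg and Afm and overlap for Alb, Ahsg, Gc and Afp.

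Alb, the gene of serum albumin, was the most abundant gene row in both groups. Its level was 66849, 100665, 93694, 79392 and 73099 CPM in fed libraries 1 to 5. In starved libraries 1 to 5 it was 84125, 128846, 81336, 82104 and 94663 CPM. Starved library 2 stood above all others, and the remaining 4 starved libraries lay within the fed range. The log2 fold change was 0.19 ± 0.20 (SE), with a 95% interval from −0.26 to 0.63, and the adjusted p was 0.49. Without starved libraries 2 and 4 it was 0.09. As a share of all gene-assigned reads, which does not use the scaling factors, Alb took 8.70% ± 1.19 of fed and 8.83% ± 1.24 of starved libraries (SD, n = 5 each). The 8 genes together took 11.4% ± 1.48 of the reads in fed and 11.1% ± 1.38 in starved livers. Without Alb, the other 7 took 2.70% ± 0.300 in fed and 2.22% ± 0.166 in starved livers, and those ranges (2.44 to 3.05 and 2.02 to 2.39) did not overlap. That separation holds for unscaled shares only. The TMM scaling factors ran from 1.01 to 1.10 in fed and from 0.850 to 0.987 in starved libraries, and scaled by them the groups overlap.

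Afm encodes afamin, a glycoprotein that carries vitamin E. In fed libraries 1 to 5 it stood at 230, 315, 311, 258 and 263 CPM. The starved libraries held 101, 142, 107, 90.4 and 157 CPM. Every starved library was below every fed library. The mean went from 275 ± 36.9 to 119 ± 28.7 CPM (SD, n = 5 each), a 2.31-fold fall (log2 fold change −1.21 ± 0.17 SE, 95% interval −1.57 to −0.84, adjusted p = 0.00035, edgeR's quasi-likelihood test). Starved libraries 2 and 4 did not carry it, since the value without them was −1.16. Relative to Alb in the same library, which needs no scaling, Afm was steady among fed livers: the log2 ratio of its reads to those of Alb was between −8.32 and −8.12. In starved livers this ratio was between −9.83 and −9.24. Per exon length, the reads of Alb exceeded those of Afm 447-fold ± 23.5 in fed and 1199-fold ± 189 in starved livers (SD, n = 5 each).

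Afp, the gene of alpha-fetoprotein, was low, with 35 to 69 reads in each fed library and 25 to 80 in each starved library. Its level was 2.39, 2.25, 2.54, 2.20 and 1.41 CPM in fed and 3.11, 1.34, 2.95, 1.52 and 2.26 CPM in starved livers. Starved libraries 2 and 4 were the lowest of their group, and the groups overlapped. The log2 fold change was 0.05 ± 0.26 (SE), with a 95% interval from −0.51 to 0.61 and an adjusted p of 0.89, and its sign depended on the scaling. With library totals alone it was −0.094, and without starved libraries 2 and 4 it was 0.39 (adjusted p = 0.146). Per kilobase of exon, Alb exceeded Afp 40060-fold ± 9230 (SD, n = 5) in fed and 50110-fold ± 28990 in starved livers, although the 2 genes are 14134 bases apart.

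Gc encodes the vitamin D-binding protein, which also takes up actin in plasma. Its level was between 5449 and 6845 CPM in fed and between 4499 and 6570 CPM in starved livers, with medians of 6202 and 5832 CPM. The groups overlapped, and starved library 4 was the lowest of all. The log2 fold change was −0.14 ± 0.14 (SE; 95% interval −0.44 to 0.16, adjusted p = 0.45), and it was 0.0056 without starved libraries 2 and 4. The interval excludes a fall of the size seen in Afm.

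The 4 genes lie on chromosome 5 in GENCODE's annotation of mm10. Alb occupies 90460897 to 90476602, Afp 90490737 to 90508907 and Afm 90518932 to 90553543, all on the plus strand. Gc lies 1002998 bases before Alb, at 89417522 to 89457898 on the minus strand. The gene after Afm, 5830473C10Rik, which RefSeq calls Albfm1, begins 7563 bases further on. It also fell (log2 fold change −1.02 ± 0.16 SE, from 27.6 to 13.6 CPM, adjusted p = 0.00072). The 2 genes at the far end of the row, Afm and 5830473C10Rik, thus fell, while Alb and Afp did not pass the test. Of the 5 tested neighbours of the region, 2 rose and 2 fell, the others being Rassf6 (−0.49), Slc4a4 (0.68), Adamts3 (0.89) and Ankrd17 (0.25, not called). Without starved libraries 2 and 4, 1 rose and 2 fell.

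Ttr, the gene of transthyretin, which carries thyroxine and holds RBP4 in the circulation, lies on chromosome 18. Its level was 6047, 7020, 8826, 6748 and 5996 CPM in fed libraries 1 to 5. It was 4837, 3026, 3953, 2180 and 4773 CPM in the starved libraries. The groups did not overlap, and starved libraries 2 and 4 were the lowest. The mean fell from 6927 ± 1150 to 3754 ± 1147 CPM, by 0.88 ± 0.22 (SE) on the log2 scale (95% interval −1.37 to −0.40, adjusted p = 0.0088, edgeR's quasi-likelihood test). Without starved libraries 2 and 4 it still fell, by 0.60 (adjusted p = 0.0106).

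Rbp4, the plasma carrier of retinol, lies on chromosome 19 (38116629 to 38125281, minus strand) and was the member that rose. Its level in fed libraries 1 to 5 was 596, 601, 605, 585 and 680 CPM, the smallest relative spread of the 8 genes. In the starved libraries it was 1572, 1453, 1513, 1595 and 1191 CPM. The lowest starved library was well above the highest fed library. The mean rose from 613 ± 37.9 to 1465 ± 163 CPM (log2 fold change 1.26 ± 0.12 SE, 95% interval 1.0 to 1.51, adjusted p = 2.9e-05, edgeR's quasi-likelihood test). Leaving out starved libraries 2 and 4 gave 1.24.

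Rbp4 and Ttr thus moved apart although their products circulate as 1 complex. The ratio of Rbp4 to Ttr reads, each per exon length and within a library, was 0.0872 ± 0.0161 (SD, n = 5) in fed livers, with a highest value of 0.109. In starved livers it was 0.418 ± 0.180, with a lowest value of 0.240. Ttr was the more abundant of the pair in all 10 libraries. The ratio of Ttr to Gc, formed the same way, ran from 1.47 to 2.24 in fed and from 0.736 to 1.25 in starved livers, without overlap.

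**Figure D2:**
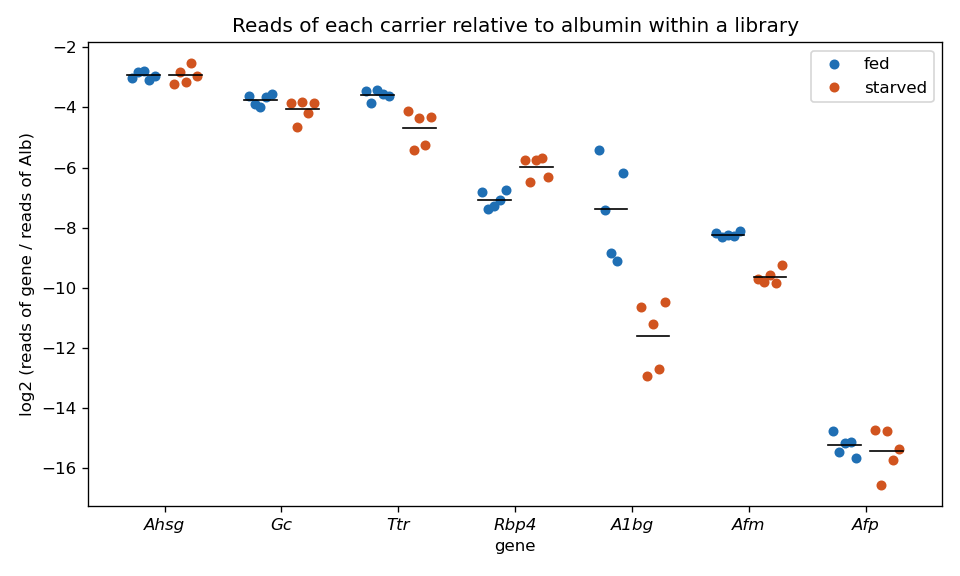
Reads of 7 genes relative to reads of Alb in the same library (log2), for 5 fed and 5 starved livers; each point is a library and the black line is the mean. Points of the 2 groups are apart for Ttr, Rbp4, A1bg and Afm, and those of Ahsg, Gc and Afp overlap.

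Ahsg encodes fetuin-A, which keeps calcium phosphate in solution and acts on the insulin receptor, and lies on chromosome 16 (22891277 to 22899449, plus strand). Its level was 8269, 14425, 13446, 9324 and 9514 CPM in fed and 9121, 18314, 9143, 14161 and 12322 CPM in starved libraries. The groups overlapped over most of their range, and starved library 2 was the highest, as for Alb. The log2 fold change was 0.20 ± 0.24 (SE; 95% interval −0.32 to 0.71, adjusted p = 0.53), and it turned to −0.091 without starved libraries 2 and 4. Relative to Alb, Ahsg had the same mean in both groups, −2.93 ± 0.13 in fed and −2.93 ± 0.27 in starved livers on the log2 scale. Of the 5 tested relatives in the Ahsg cluster and cystatin list, 1 rose and 0 fell. It was Hrg, the histidine-rich glycoprotein (0.48 ± 0.13), a call lost with library totals alone (0.32), when 1 of the 5 fell. Fetub and both kininogen genes were not called.

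A1bg encodes a plasma glycoprotein of the immunoglobulin superfamily that is made more by female than by male mouse liver. It lies on chromosome 15 (60896859 to 60923012, minus strand). Fed libraries 1 to 5 held 1563, 597, 203, 145 and 1009 CPM, a 10.8-fold range within 1 group. Starved libraries held 52.6, 16.4, 34.2, 12.3 and 67.1 CPM. Every starved library was below every fed library, and starved libraries 2 and 4 were the lowest. The mean went from 704 ± 593 to 36.5 ± 23.4 CPM, a 19.3-fold fall by the fit (log2 fold change −4.27 ± 0.72 SE, 95% interval −5.84 to −2.69, adjusted p = 0.00102, edgeR's quasi-likelihood test). Without starved libraries 2 and 4 it fell by 3.76. Among fed livers its SD of 1.47 on the log2 scale was larger than that of 99.9% of tested genes. The groups are thus apart, but the spread within each is wide and the size of the fall is loosely set. An antisense gene, 4930402D18Rik, overlaps A1bg and has no row in the counts, and since the strand setting of the counting is not given, its reads and those of A1bg cannot be told apart. The same holds for antisense genes that overlap Afp, Afm and Ahsg.

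**Figure D3:**
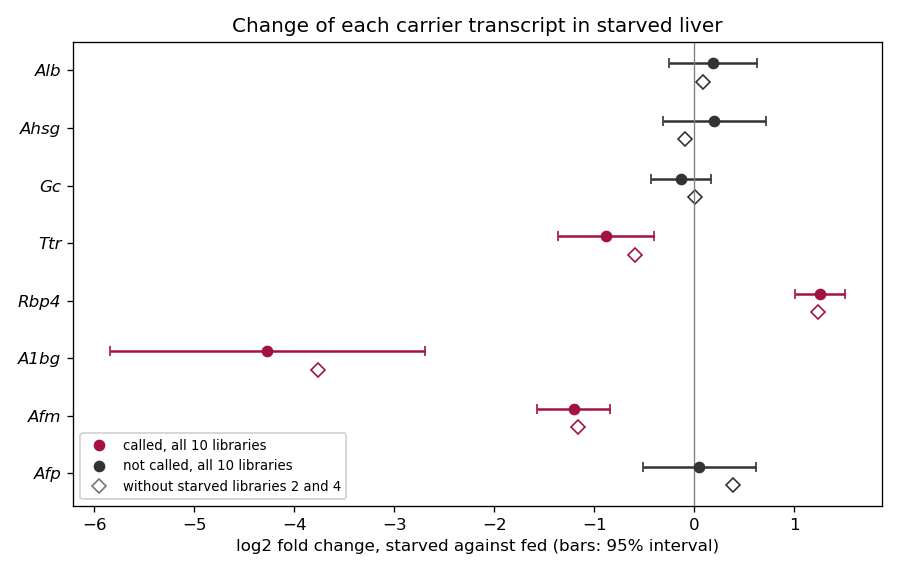
Log2 fold change of each gene in starved against fed liver with its 95% interval (filled circles; red where called, dark grey where not) and the value without starved libraries 2 and 4 (open diamonds). A1bg, Afm and Ttr lie below 0 and Rbp4 above 0 with and without these 2 libraries.

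Levels between genes are compared per kilobase of exon. In fed liver the order was Alb (40678 CPM per kilobase), Ahsg (6453), Ttr (5841), Gc (3417), Rbp4 (498), A1bg (386), Afm (90.6) and Afp (1.05). Ahsg and Ttr overlapped in their ranges over fed libraries, as did Rbp4 and A1bg, and A1bg and Afm, and the other neighbours did not. In starved liver the order was Alb (46320), Ahsg (7401), Ttr (3165), Gc (3107), Rbp4 (1189), Afm (39.3), A1bg (20.1) and Afp (1.08). Here Ttr and Gc overlapped, as did Afm and A1bg. Among 21777 gene rows with a length, Rbp4 stood at place 118 in fed and 54 in starved liver, and A1bg at 167 and 2164. Alb was first in both, and Ahsg was ninth in fed and eighth in starved liver.

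**Figure D4:**
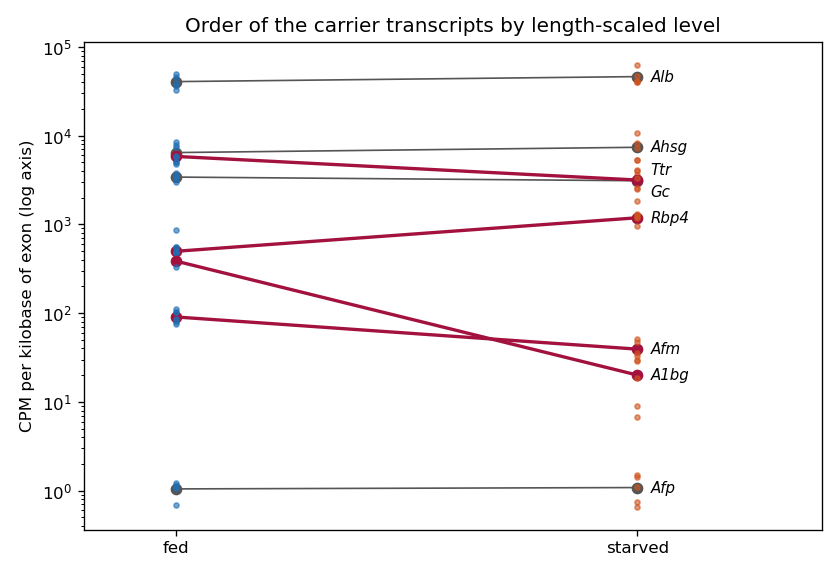
Level per kilobase of exon on a log axis in fed and starved liver; large points are group means, small points single libraries, and red lines join the 4 called genes. A1bg passes below Afm, and Rbp4 and Ttr come closer together.

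Other plasma binding and carrier proteins also moved both ways. The counts of this list and those below stand beside 18.6% called higher and 20.0% called lower among all tested genes. Of 28 tested, 8 rose and 9 fell, with a median log2 fold change of −0.015 where all tested genes had 0.0035. Serpina6, the corticosteroid-binding globulin, fell most (−4.11 ± 0.35 SE), about as far as A1bg, and Igfals, which holds IGF in plasma, fell by 1.69. Orm3, an orosomucoid, and Igfbp2, an IGF-binding protein, rose (1.82 and 1.30). Of 12 genes listed as neighbours of the negative acute phase, not all of them plasma proteins, 3 rose and 5 fell. Hnf4a, a transcription factor, was among the 3. Serpina6 and Igfals were again the lowest, and Apoa4 (4.13) and Apoa1 (0.99), of lipid transport, the highest.

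Among 18 transcription factors known to act on albumin family genes, 3 rose and 7 fell (median −0.21). Dbp, named for its binding to the albumin D-box, fell by 3.20, and its relatives Hlf and Tef fell by 1.16 and 1.02. Cebpa, a hepatocyte factor, fell by 0.82, while Cebpd rose by 2.56. Hnf4a (0.51) and Cebpb (1.05) rose. Scaling by totals ended both calls (0.34 and 0.86), as did the fit without starved libraries 2 and 4 (0.20 and 0.65), in which 1 factor rose and 7 fell. Hnf4a also lost its call when any 1 fed library, or starved library 2 or 4, was left out (0.38 to 0.54). Cebpb lost its own when fed library 1, 2, 3 or 4, or starved library 2, 4 or 5, was left out (0.77 to 1.15). Alb, whose window holds 2 matches to TTANGTAA, did not pass the test. Whether either match is the site that gave Dbp its name was not examined. Whether Dbp, Hlf and Tef act on Alb in these livers was not tested.

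Of 6 factors described as repressors of Afp, 3 fell and 0 rose: Nr2f2 (−0.54), Zbtb20 (−0.45) and Zfhx3 (−0.43). Zhx2, which sets the postnatal level of Afp, was not called (−0.44 ± 0.21, adjusted p = 0.12), though it was called without starved library 5 (−0.60). Of 8 tested fetal liver and oncofetal genes, 1 rose, the imprinted gene Peg3 (3.16 to 8.94 CPM), and 0 fell. With library totals alone, which moved the median of all genes to −0.15, 1 rose and 2 fell.

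Of 17 tested genes of retinol handling, 2 rose and 6 fell (median −0.32). Rdh11, a retinal reductase, fell by 2.22 and Ces1f, a carboxylesterase, by 1.81, beside the rise of Rbp4. Cyp26a1 and Cyp26b1, which break down retinoic acid, rose (2.44 and 2.48), but without starved libraries 2 and 4 they stood at −0.071 and 1.49 and neither was called. Leaving out any 1 fed library, or starved library 2 or 4, also ended the call of Cyp26a1 (1.31 to 2.58), and leaving out fed library 3 or starved library 4 that of Cyp26b1 (2.28 and 2.34). Of 5 tested genes of vitamin D handling 2 fell and 0 rose, Dhcr7 of sterol synthesis (−1.72) and Cyp2r1, the hepatic 25-hydroxylase (−1.53), beside Gc, which was not called.

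Of 9 tested genes of thyroid hormone handling, 2 rose and 6 fell (median −0.90), beside the fall of Ttr. Slco1a1, an organic anion transporter, fell by 4.05 and Thrsp, a thyroid-responsive lipogenic gene, stood at −3.15, while Slco1a4 and Slc16a10, transporters, rose (2.31 and 1.20). Serpina7, the thyroxine-binding globulin, fell (−0.85), but was not called without starved libraries 2 and 4 (−0.76), nor when fed library 2, 3 or 5, or starved library 2, 3 or 5, was left out (−0.87 to −0.65). Of 7 tested genes for uptake and recycling of albumin, 5 fell and 0 rose, with Lrp1, an endocytic receptor, at −0.86 and B2m at −0.48. Fcgrt, the receptor that returns albumin to the blood, was not called (0.20). Without starved libraries 2 and 4, 3 of these genes fell.

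As A1bg is a gene of higher level in female liver, 2 lists of sex-biased liver genes were set beside it. Of 14 tested genes of higher level in males, 10 fell and 0 rose (median −1.15), and without starved libraries 2 and 4, 10 fell and 1 rose. Of 24 of higher level in females, 6 rose and 8 fell (median −0.31). Hao2, a hydroxyacid oxidase (−2.29), and Ntrk2, a neurotrophin receptor (−2.18), fell with A1bg. Cyp2b10 and Cyp4a14, cytochrome P450 genes, rose (4.65 and 4.13). The fall of A1bg was thus shared by some genes of that list and not by others.

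Single genes with the most similar pattern were ranked by Pearson's r of log2 CPM over the 10 libraries, a description that mixes the difference between groups with that among libraries. For Rbp4 they were Smpd3 (r = 0.989), Ufd1l (0.988) and Defb1 (0.986), and for Afm Edem2 (0.991), Acsl3 (0.984) and Nfix (0.983). A1bg was most like Dnase1l3 (0.962), Spast (0.961) and Cyp2g1 (0.957), and Ttr most like Pip5k1c (0.978), Ptma (0.977) and Tram1 (0.976). Among the genes that were not called, Alb was most like Os9 (0.946), Gc like Serpinf1 (0.954), Ahsg like Rangap1 (0.967) and Afp like Tmem184c (0.941).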

How the data were processed

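Per the submitters' processing notes, reads were handled on build mm10 with HTSeq, edgeR 3.6.4, Bowtie2 2.0.0, TopHat2 2.0.0 and CASAVA 1.8.2, and per the labels' protocols libraries were made with a stranded total RNA kit. The annotation (not given in the sources used here) and the strand setting (likewise) are unknown. The authors deposited raw counts, whole numbers for each gene symbol. The 5 closing tally rows of each file name no gene and stayed out: reads aligned to more than 1 place were 47.1% of tallied reads in fed and 42.9% in starved libraries, and reads in no gene 18.1% and 20.1%, on average.

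From these counts, R 4.3.3 and edgeR 4.0.16 (filterByExpr, TMM, quasi-likelihood test) gave 12796 tested genes, with Benjamini-Hochberg adjustment over all of them and calls under 0.05. The SE is the log2 fold change over the square root of F, and intervals are 95%. Levels are TMM-scaled CPM (mean ± SD), and lengths are merged exons of GENCODE M21's basic set. Log2 CPM used a prior count of 2. The fit was tested on simulated data with 5 libraries per group. There 67, 67 and 66 genes changed 1.5-, 2- and 4-fold, and 12596 did not change. Far more genes were called in the real data, and no simulated library was made to stand apart, so the rates need not hold for these livers. The fit called 26.9% of 1.5-fold, 61.2% of 2-fold and 95.5% of 4-fold changes in the right direction, and 0.056% of unchanged genes. A gene that was not called may thus have changed by a small amount. No pair of replicates agreed within sampling noise (chi-square per degree of freedom from 11.2 upward).

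The 8 members, 13 pathway lists and 11 marker lists were chosen with earlier results of these data known, and the Y-linked genes and Xist after the values of the sex-biased lists were seen. Named beside the members were, per list, up to 2 called genes of the largest change in each direction with at least 1 CPM, not all of them in the text, the 3 genes of most similar pattern, and direct partners of a member; other list genes named were chosen after their values were seen. Alternatives were other scalings, DESeq2 1.42.0, limma-voom (limma 3.58.1), other filters, a replicate block, a threshold of 0.01 and left-out libraries.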

Additional observations from a re-analysis of the deposited data

Results flagged for a closer look

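Of 36 groups of 5 values examined (levels, ratios to Alb, totals and shares), 2 held a library whose gap to its nearest neighbour exceeded 0.71 of the group's range, and chance passes that limit in about 5% of groups. Alb in starved library 2 stood at 128846 CPM, with the next starved library at 94663. Rbp4 in fed library 5 stood at 680.068 CPM, with the next fed library at 605. Leaving out either library changed no call among the 8 genes.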

How the results depend on the processing

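Under each of the 21 alternatives the members called were 1 higher and 3 lower, with log2 fold changes from 1.10 to 1.32 for Rbp4, −1.37 to −1.10 for Afm, −1.03 to −0.60 for Ttr and −4.60 to −3.75 for A1bg. Among the 8 members, signs turned only for genes that were not called: Afp was −0.094 with library totals alone, −0.0029 with limma-voom and −0.10 to 0.20 when 1 library was left out, and without starved libraries 2 and 4 Afp was 0.39, Gc 0.0056 and Ahsg −0.091. Cyp26a1, which was called, also changed sign without these 2 libraries (−0.071). The cause was not tested. Over all genes, 4934 were called, against 2798 (1272 higher, 1526 lower) at a threshold of 0.01, which by its construction calls fewer. Library totals alone gave 1490 higher and 3490 lower calls, a share of 29.9% higher where TMM gave 48.2%. Leaving out 1 library gave 3981 to 5613 calls. A replicate block gave 4410 calls and changed none of the members' calls, but of the genes named in the text it ended those of Cyp26a1 (1.27), Cyp26b1 (2.70), Hnf4a (0.46) and Serpina7 (−0.78). With limma-voom the calls of Cebpb (0.96), Cyp26a1 (1.38), Hnf4a (0.46) and Serpina7 (−0.77) ended as well. The labels name 5 pairs of mice but not which libraries belong together, and whether the replicate numbers mark the pairs was not settled. Same-numbered libraries deviated together (r over 0.1) in 1 of 5 pairs, with r from −0.05 to 0.20. Among all libraries, 1 fed and 2 starved ones correlated best with their own number. Low correlations over all genes cannot exclude pairs. Depth limits Afp, where single libraries held as few as 25 reads.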

Other observations

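Deviations of single libraries from their group mean were compared between members, as a description over 10 libraries that share their scaling factors. Alb and Ahsg deviated together (r = 0.865), as did Gc with Ttr (0.789), Alb with Afm (0.776) and Afp with Ttr (0.743). Rbp4 went the other way from Afm (−0.69). A1bg followed none of the other 7 closely, its r lying between −0.48 and 0.34. Among the tested markers of other cells, the 6 of proliferating cells held 5 that fell and 0 that rose, and the 4 of neutrophils held 3 that rose and 0 that fell, with summed levels of no more than 24.4 CPM in any library.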
